A study of Mus musculus and synthetic construct with 32 samples.

Results

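ERV1 families are the class I endogenous retroviruses of the mouse genome, relatives of the gammaretroviruses. Their members here were all repeat families whose annotated class is ERV1 within the long terminal repeat (LTR) retrotransposons. There were 147 such families among 1237 repeat families of all kinds, beside 283 ERVK, 110 ERVL and 108 ERVL-MaLR families. Of the 147 families, 144 were listed in all 4 tables used, which cover knockout testis at postnatal day 8 (P8) and P12, knockout ovary at P0, and an m6A immunoprecipitation. By their names, 30 families were internal regions and 117 were LTRs.

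A complete retroviral insertion has an internal region, with the gag, pol and env genes or their remains, between a pair of LTRs, which hold the promoter and the polyadenylation signal. Many copies are solitary LTRs. ERV1 elements that are active or recent in the mouse include the murine leukaemia viruses (MLV), the VL30 elements, which are transcribed and packaged by retroviruses but code for no complete viral protein, the GLN elements, named for the glutamine transfer RNA that primes their reverse transcription, and the murine retrovirus-related sequences (MuRRS). Germ cells restrain such elements through DNA methylation, KRAB zinc finger proteins with their corepressor TRIM28 and the histone methyltransferase SETDB1, and piRNAs. N6-methyladenosine (m6A) is an internal mark of RNA, and YTHDC2, a helicase whose YTH domain recognises m6A, is needed for meiosis in germ cells of both sexes.

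All mice were C57BL/6J. Ythdc2 knockout (KO) animals were set against heterozygous (het) or wild-type (WT) animals. P8 testes gave 2 KO, 1 het and 1 WT library, P12 testes 3 KO and 3 het libraries, and P0 ovaries 2 KO and 2 het libraries. There were 2 knockout lines, one with exon 7 deleted and one with stop codons inserted, and the labels do not say which line each library came from. These 14 libraries were made from total RNA of whole gonads after removal of ribosomal RNA, with a kit that keeps the strand. The m6A comparison used 1 immunoprecipitate and 1 input library of polyadenylated, fragmented RNA from WT testes at P8, so no replicate stands behind it. Mean counts of that table cover immunoprecipitates and inputs of P8, P12 and P20 testes together, from libraries made with a small RNA kit. The P8 and P20 testes were WT and the P12 testes het. Strand shares there therefore differ from total RNA in kit, RNA fraction, age, genotype and the inclusion of immunoprecipitates. Shares of the inputs alone cannot be read from these means. The files hold the authors' comparisons, not values per library. Every mean normalized count below is therefore a mean over all libraries of a table, knockout and control together, and no SD or standard error goes with it. Each log2 fold is the authors' estimate, which lies closer to 0 the fewer reads a family has, and passing the test means the authors' adjusted p below 0.05. Only adjusted p-values were read, so no count at an unadjusted p stands beside a count of 0. Since each table was normalized on its own, counts and fold sizes are not strictly comparable across tables. In bulk tissue, fewer cells of a type and less RNA per cell cannot be told apart.

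Summed over every feature, the mean normalized count was 42229589 in the P8, 37066681 in the P12, 23754190 in the ovary and 24879917 in the m6A table. Ythdc2 itself fell in P12 KO testes, with a log2 fold of -1.29 against het in the authors' deposited table (DESeq2 adjusted p = 9.87e-25). In P0 ovary (-0.43, adjusted p = 0.584) and in P8 testis (-0.50 against WT and -0.24 against het, adjusted p = 1 for both) its folds were below 0 and did not pass the test. All 6 germ cell markers and all 5 Sertoli cell markers examined had reads in every testis table. In P0 KO ovaries 3 of 4 oocyte markers were lower (median log2 fold -1.60), where 0.435% of gene rows were lower. Of the 6 germ cell markers there, Mael was lower, and Tex101 (0.78) and Stra8 (0.52) were higher, where 0.1% of gene rows were higher. At P12 the Leydig cell marker Cyp17a1 was higher in KO (1 of 3 measured) and the germ cell marker Sycp3 lower (1 of 6), where 0.849% of gene rows passed. In P8 testis spermatid genes differed between libraries: by the authors' deposited table, Prm1 and Prm2 of 4 such genes were higher in het than in WT, where 0.01% of gene rows passed, and Prm1, Prm2 and Tnp2 were lower in KO than in het, where 0.045% passed. Het and WT are 1 library each at P8, so the first of these differences is between single libraries and has no replicate check. The second rests on the same single het library. For KO against WT the 4 genes had a median log2 fold of -0.20, beside -0.68 for KO against het. The part of these markers in the ERV1 values was not tested.

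ERV1 reads came mostly from the antisense strand in total RNA. In the polyadenylated RNA of the m6A libraries, immunoprecipitates and inputs together, they came mostly from the sense strand. A sense row counts reads in the direction in which the element would be transcribed from its own LTR. An antisense row counts reads in the other direction, such as those of introns or other transcripts that run through an insertion placed against them. In the authors' deposited tables, antisense rows held 29.2% of all ERV1 counts for m6A, against 84.4% at P8, 88.8% at P12 and 79.2% in P0 ovary. For all repeats together the antisense share was 22.5% for m6A, 44.3% at P8, 35.6% at P12 and 46.3% in P0 ovary. For gene exons it stayed between 0.489% and 1.73%. ERV1 made up 0.815% of the sense and 5.54% of the antisense repeat counts at P8.

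A single row, the antisense row of MMVL30-int, held most of the ERV1 antisense counts of total RNA. MMVL30-int is the internal region of mouse VL30. In the authors' deposited table its mean normalized count was 4686 sense and 187980 antisense at P8, which is 97.6% antisense. The deposited P12 table gave 6393 sense and 280812 antisense (97.8% antisense), and that of the ovary 8271 sense and 77969 antisense (90.4% antisense). Among polyadenylated RNA fragments, by contrast, the deposited m6A table listed 7535 sense and 235.6 antisense, or 3.03% antisense. That mean includes the immunoprecipitates, in which the sense row was higher than in the input at P8. The antisense row stood at place 4 among all features of the deposited P12 table, place 8 at P8 and place 14 in ovary, and at place 13954 in the m6A table. It made up 84.7% of all ERV1 antisense counts at P12, 71.4% at P8 and 61.9% in ovary. Other VL30 rows were less antisense: RLTR6-int was 29.7%, 22.4% and 31.1% antisense at P8, at P12 and in P0 ovary. The VL30 LTRs ranged in the deposited tables, with RLTR6_Mm at 19.8%, 10.6% and 7.31%, RLTR6C_Mm at 29.5%, 21.2% and 33.8%, and RLTR6B_Mm at 68.9%, 52.9% and 48.2%. Which insertion or transcript gives these reads cannot be read from family totals.

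Without MMVL30-int, ERV1 counts were still more antisense than those of all repeats, at 32.5% for m6A, 63.2% at P8, 59.0% at P12 and 65.9% in P0 ovary. Taken family by family in the deposited tables, over those with a summed mean of at least 100, the median antisense share was 40.5% over 81 families for m6A, 68.9% over 98 at P8, 65.7% over 92 at P12 and 70.9% over 89 in P0 ovary. More than 50% antisense were 24 of 81 families for m6A, against 80 of 98 families at P8, 71 of 92 families at P12 and 73 of 89 families in P0 ovary. No such median or count was taken over families of other repeat classes, so these values do not set ERV1 families apart from them. Some ERV1 families had the opposite balance in total RNA. MuLV-int, the MLV internal region, was 17.9% antisense at P8, 7.69% at P12 and 22.5% in ovary, and RLTR4_MM-int, a second MLV internal region, was 20.9%, 20.9% and 20.3%. MER34B-int, an old element, lay as low, at 8.32%, 6.55% and 9.61%. MMERGLN-int, the GLN internal region, differed between tissues in the deposited tables, at 40.0% and 37.3% antisense in P8 and P12 testis and 70.1% in ovary, while MuRRS-int went the other way, at 66.6%, 57.2% and 30.2%. MURVY-int, from a family first described on the Y chromosome, was 89.5%, 88.2% and 91.0% antisense. These tissue differences have no test, and the tables were normalized separately.

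**Figure D1:**
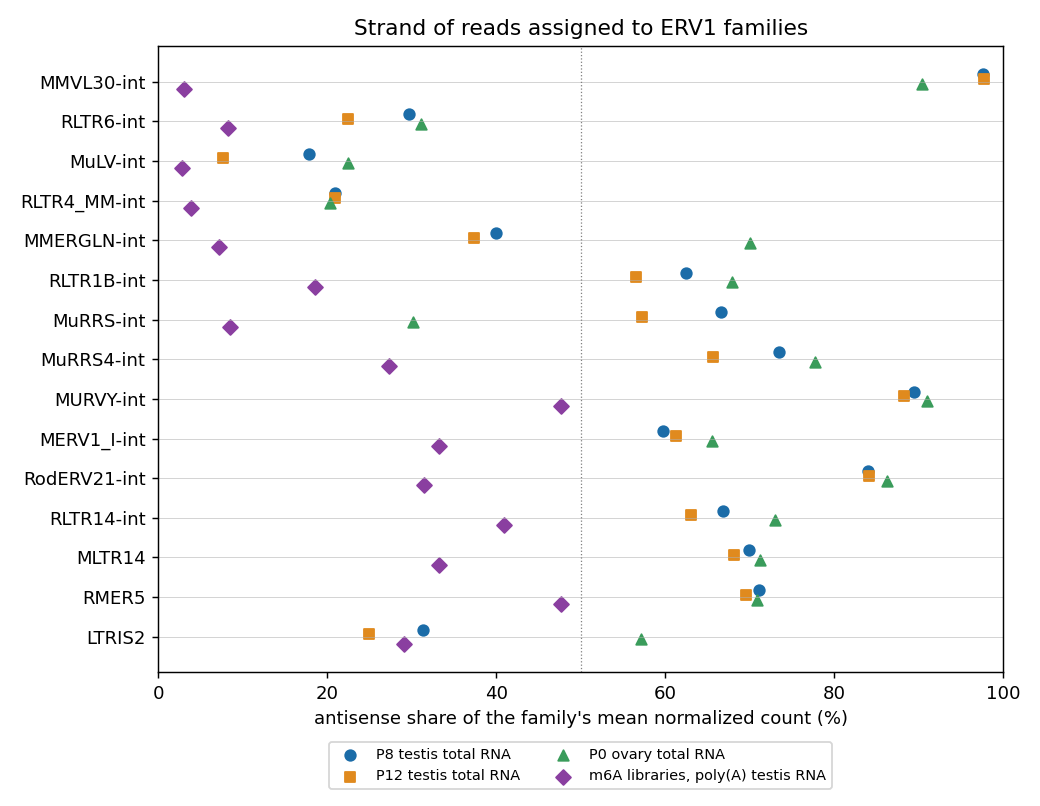
Antisense share of the mean normalized count (%, horizontal axis) of 15 ERV1 families in the P8 testis, P12 testis, P0 ovary and m6A tables, 1 point per table. MMVL30-int lies above 90% in the 3 total RNA tables and at 3.03% in the m6A table, and MuLV-int and RLTR4_MM-int lie below 25% in all 4.

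Few ERV1 rows passed the test in KO gonads, and their folds were small. The comparisons at P8 and P0 did not call the deleted gene itself, so a low count of calls there does not show that ERV1 RNA was unaltered. In P8 KO testes no ERV1 row passed. In the authors' deposited comparison 0 of 282 ERV1 rows passed for KO against WT, where 0.0414% of all repeat rows (1 of 2418) and 0.035% of gene rows passed. For KO against het it was 0 of 282 again, with 0.0% of repeat rows passed, and likewise 0 of 282 for het against WT (0.0%). The comparisons of KO with WT and with het share the 2 KO libraries. Among the 110 sense rows whose mean normalized count was 10 or more, the median log2 fold for KO against WT was -0.01 (45 above 0 and 65 below), and that of all 1084 repeat sense rows was within 0.001 of 0. Against het, the deposited table gave a median of -0.01 (43 above 0 and 67 below).

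In P12 KO testes 2 of 204 tested ERV1 rows passed, beside 1.05% of all repeat rows (20 of 1911) and 0.849% of gene rows. Both were antisense rows of internal regions, and both fell. MMERGLN-int antisense, with a mean normalized count of 1384, had a log2 fold of -0.18 in the authors' deposited table (DESeq2 adjusted p = 0.0304). The antisense row of MERV1_I-int, the internal region of another mouse ERV1, had a mean of 1263 and a log2 fold of -0.18 (deposited table, DESeq2 adjusted p = 0.0481). Their sense rows had folds of -0.11 and -0.04, with an adjusted p of 0.981 for both. The 2 counts are close to the background, and 81 antisense ERV1 rows had no adjusted p at P12. Over 107 sense rows with a mean of at least 10 the deposited P12 folds had a median of -0.02 and an SD across families of 0.117, with 47 above 0 and 60 below, against a median within 0.001 of 0 over 1058 repeat sense rows.

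P0 KO ovaries had 3 of 283 ERV1 rows past the test, where 0.332% of all repeat rows (8 of 2407) and 0.536% of gene rows passed. MMVL30-int sense rose, with a mean normalized count of 8271 and a log2 fold of 0.24 in the authors' deposited table (DESeq2 adjusted p = 0.0260). Its much larger antisense row had a fold of -0.0007 (adjusted p = 0.997). MURVY-int antisense had a deposited fold of -0.23 (mean 340.9, DESeq2 adjusted p = 2.11e-05), and MuRRS-int antisense one of -0.21 (mean 448.8, DESeq2 adjusted p = 0.000486), so both fell. Their sense folds were -0.02 and -0.05, with an adjusted p of 1.00 for both. The 103 ovary sense rows with a mean of at least 10 had a deposited median fold of 0.01, with 56 above 0 and 47 below, against a median within 0.001 of 0 over 1043 repeat sense rows.

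On the sense strand the VL30 group gave the same sign across its families in the KO comparisons with het at P12 and P0. Its sense rows lay below 0 in P8 KO testes against the single WT library. In P12 KO testes all 5 VL30 sense rows had folds above 0 in the authors' deposited table, with a median of 0.16, led by MMVL30-int at 0.31 (DESeq2 adjusted p = 0.597). All 5 were above 0 in P0 KO ovaries too, with a median of 0.18. There the deposited folds were 0.24 for MMVL30-int, 0.22 for RLTR6-int (DESeq2 adjusted p = 0.271) and 0.18 for its LTR RLTR6_Mm (adjusted p = 1.00). In P8 KO testes against WT all 5 lay below 0, with a median of -0.11, and MMVL30-int was at -0.31. Against the P8 het library 4 of 5 lay below 0 in the deposited table, with MMVL30-int at -0.04, and het against WT had all 5 below 0, with MMVL30-int at -0.27. On the sense strand the het library was thus itself below WT. The much larger antisense row of MMVL30-int lay the other way at P8, at 0.23 for KO against WT and 0.21 for het against WT. Of all these VL30 values only the MMVL30-int sense fold in ovary passed the test. No test of the difference between ages was possible on these tables. VL30 families are near-identical in parts, so that the authors' counting may have split reads among them and the 5 rows are not independent.

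MLV, GLN and MuRRS sense rows gave no fold past the test in any KO comparison. MuLV-int had deposited log2 folds of 0.15 for P8 KO against WT, -0.14 at P12 and 0.14 in ovary, and RLTR4_MM-int stayed between -0.01 and 0.04. MuRRS4-int had the lowest sense fold at P12 among ERV1 families with a mean of at least 100, at -0.30 in the authors' deposited table (DESeq2 adjusted p = 0.333). The other MuRRS row, MuRRS-int, was at -0.21 (adjusted p = 0.789). Neither was as low in ovary, at 0.04 for MuRRS4-int and -0.05 for MuRRS-int. LTRIS2, an LTR of the IS family, had -0.33 for P8 KO against WT, -0.28 for P8 KO against het, 0.22 at P12 and 0.07 in ovary, none of them past the test in the deposited tables. The highest P12 sense folds belonged to RLTR30D_RN at 0.38, MMVL30-int at 0.31 and MLTR12 at 0.31 (adjusted p = 0.333 for MLTR12). Across families, Spearman's rho between P12 and P0 sense folds was 0.26 over 102 families, and between P12 KO against het and P8 KO against WT it was -0.43 over 107. Between P0 and P8 KO against WT it was -0.07 over 103. These are descriptions, since families share libraries, reads and depth.

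**Figure D2:**
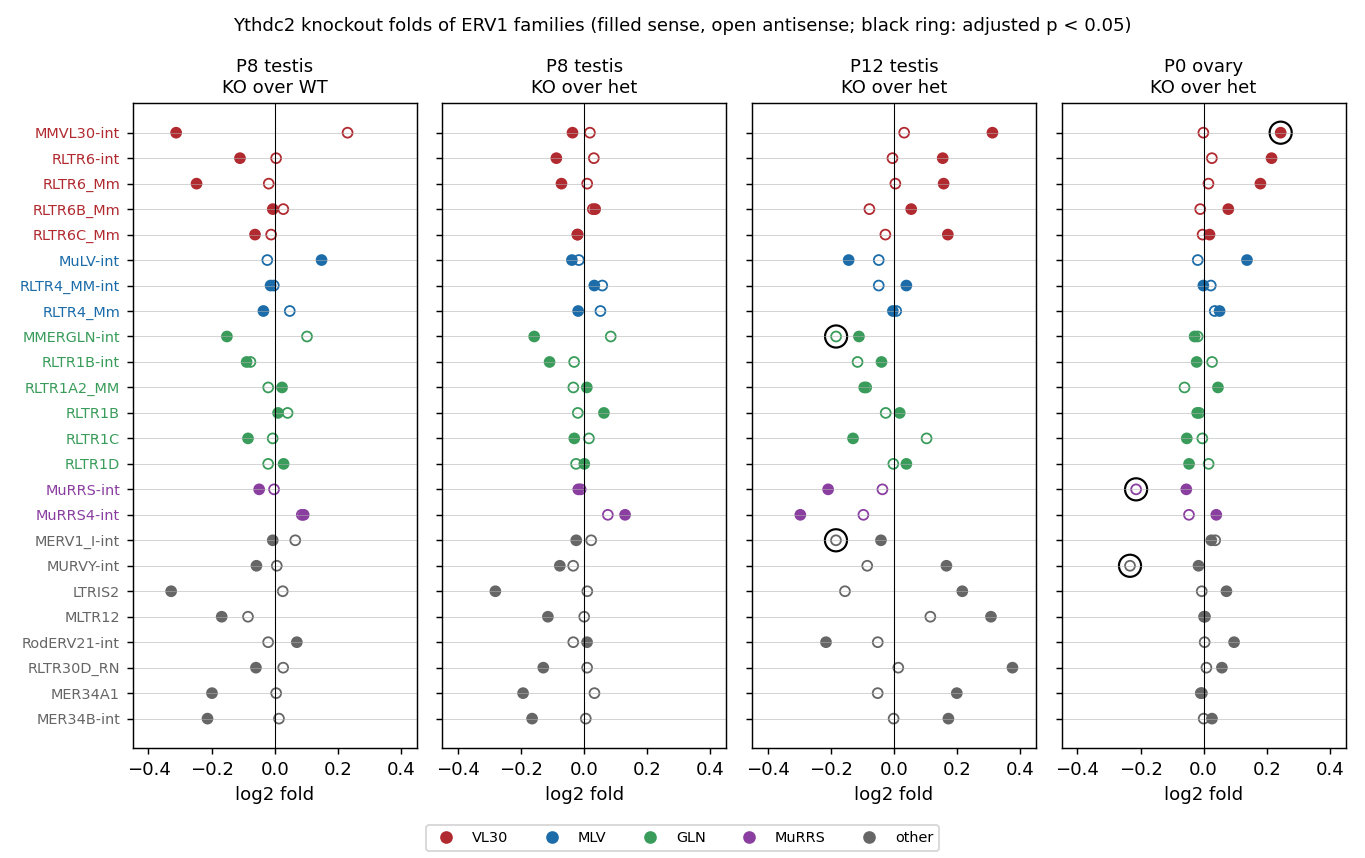
Log2 folds (horizontal axis) of 24 ERV1 families in KO gonads over WT or het gonads, 1 panel per comparison; filled points are sense rows, open points antisense rows, colours give the group and black rings mark an adjusted p below 0.05. The 5 VL30 sense rows lie above 0 at P12 and P0 and below 0 in the first P8 panel, and 5 rows are ringed.

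In P8 WT testes m6A immunoprecipitation enriched the internal regions of recent ERV1 elements, on the sense strand. Of 190 ERV1 rows with an adjusted p, 29 passed, beside 23.9% of all repeat rows (452 of 1895) and 53.2% of gene rows. On the sense strand 16 of 87 tested rows were higher in the immunoprecipitate and 6 were lower, where 18.3% of all repeat sense rows were higher and 6.67% lower. On the antisense strand 6 of 103 tested rows with a mean of at least 10 were higher and 1 was lower, where 11.1% of repeat antisense rows were higher and 11.7% lower. Taken as a whole, therefore, the share of ERV1 sense rows called was near the background. The deposited sense folds of 104 ERV1 rows with a mean of at least 10 had a median of 0.06, against 0.02 over 1066 repeat sense rows, 0.08 over 266 ERVK rows, -0.03 over 98 ERVL rows and 0.40 over 99 ERVL-MaLR rows.

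The families within ERV1 lay far apart. The recent groups given next were chosen with earlier results of these data known, and 1 library stands on each side. Not every internal region with many reads was higher: RLTR14-int had a sense fold of 0.09 (mean 1041) and MER34B-int one of -0.96 (mean 525.7). All 8 internal regions of the VL30, MLV, GLN and MuRRS groups were higher in the immunoprecipitate than in the input, with deposited log2 folds from 0.91 to 2.31 and a median of 1.83. MMERGLN-int led with 2.31 in the authors' deposited table (mean normalized count 3706, DESeq2 adjusted p = 7.61e-24). MuLV-int followed at 2.17 (mean 3165, DESeq2 adjusted p = 9.69e-11) and RLTR4_MM-int at 2.02 (mean 3625, adjusted p = 0.00389), so that both MLV internal regions were past a log2 fold of 2. For VL30, MMVL30-int had a deposited fold of 1.95 (mean 7535, DESeq2 adjusted p = 1.90e-25) and RLTR6-int of 1.26 (mean 2287, adjusted p = 8.02e-13). MuRRS-int had 1.70 (mean 1064, DESeq2 adjusted p = 1.03e-13), RLTR1B-int 1.67 (mean 1077, adjusted p = 1.85e-16) and MuRRS4-int 0.91 (mean 1318, adjusted p = 0.000187) in that table. Outside these groups MURVY-int at 0.88 (DESeq2 adjusted p = 0.0469) and MERV1_I-int at 0.78 (adjusted p = 0.000194) were the other internal regions that were higher.

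On the antisense strand the same 8 internal regions had deposited folds from -0.08 to 0.51 with a median of 0.08, and 0 passed the DESeq2 test. The 12 LTRs of the VL30, MLV and GLN groups with a sense fold were between -0.57 and 1.18 with a median of 0.19. No LTR carries a MuRRS name, so the MuRRS internal regions have no LTR in this comparison. Of the 9 LTRs with an adjusted p, 1 passed, RLTR1C at 1.18 (DESeq2 adjusted p = 0.00260). Over all ERV1 families with a mean of at least 10, 10 of 16 tested internal regions were higher and 2 lower in the deposited table, and 6 of 71 tested LTRs were higher and 4 lower. The median fold was 0.23 over 21 internal rows and 0.02 over 83 LTR rows. All 8 recent internal regions had mean counts of 1064 or more. The SD of m6A folds was 0.266 among ERV1 rows below a mean of 10 and 0.860 among those of at least 1000, and the part of read depth in the contrast of internal regions with LTRs was not tested.

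**Figure D3:**
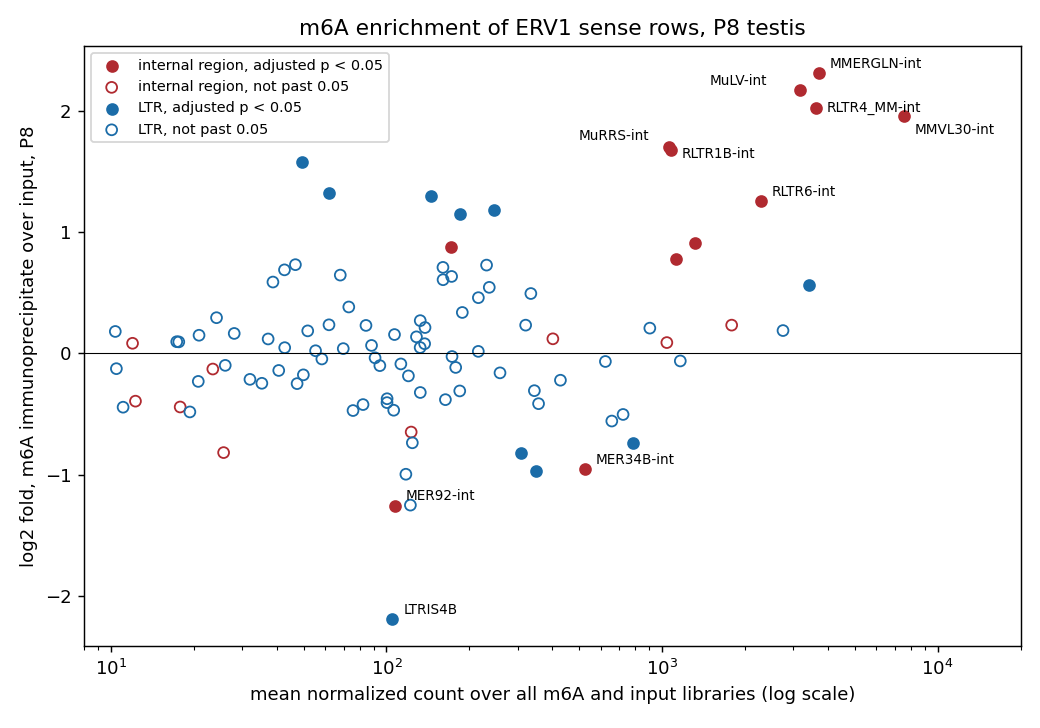
Log2 fold of the P8 m6A immunoprecipitate over input (vertical axis) against mean normalized count (horizontal axis, log scale) for 104 ERV1 sense rows; red points are internal regions, blue points LTRs, filled points have an adjusted p below 0.05, and open points also include rows without an adjusted p. The internal regions of MLV, GLN, VL30 and MuRRS lie at the upper right, between 0.91 and 2.31.

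Where an internal region and an LTR carry the same element name, the internal region had the higher fold in 6 of 7 pairs. The pairs were picked by name after the values were seen. In the authors' deposited table MMERGLN-int had 2.31 and MMERGLN_LTR 0.16 on the log2 scale, a difference of 2.15. For MLV the folds were 2.02 for RLTR4_MM-int and 0.34 for RLTR4_Mm, for VL30 1.26 for RLTR6-int and -0.42 for RLTR6_Mm, and for RLTR1B 1.67 for the internal region and 0.21 for the LTR. MERV1_I-int at 0.78 stood against MERV1_LTR at -0.998 (DESeq2 adjusted p = 0.0784) in that table. MURVY-int at 0.88 and MURVY-LTR at 0.71 were close, and RLTR14-int at 0.09 was below RLTR14 at 0.21. MMERGLN_LTR had a mean count of 28.0 and no adjusted p. No pair's difference was tested, and reads of solitary LTRs are counted with those of complete elements.

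**Figure D4:**
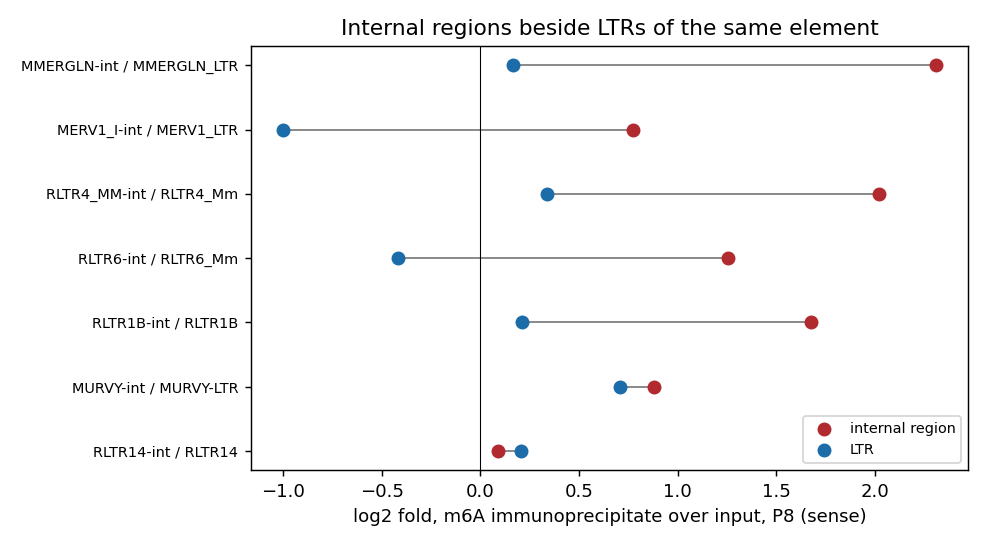
Log2 fold of the P8 m6A immunoprecipitate over input (horizontal axis, sense strand) for 7 pairs of an internal region (red) and an LTR (blue) of the same element name. The red point is to the right in all pairs except RLTR14, and the widest gap, 2.15, is that of MMERGLN.

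LTRs with a higher m6A signal were few and of mixed kinds. On the sense strand, besides RLTR1C, the authors' deposited table had MER57E1 at 1.57 (mean 49.4, DESeq2 adjusted p = 0.0191), RLTR30D_RN at 1.32 (adjusted p = 0.0483), LTR37B at 1.29 (adjusted p = 0.00519), RLTR41C at 1.15 (adjusted p = 0.00461) and MLTR14 at 0.56 (adjusted p = 0.00112). MER57D stood out on the antisense strand at 2.10 (mean 486.6, DESeq2 adjusted p = 5.41e-20 in the deposited table). It was followed there by RLTR41 at 1.09, LTRIS2 at 1.03, LTR72_RN at 0.86, MER89 at 0.80 and RMER21B at 0.72. Lower in the immunoprecipitate were, on the sense strand, LTRIS4B at -2.19 (mean 105.1, DESeq2 adjusted p = 0.000206 in the deposited table), MER92-int at -1.26, MLTR12 at -0.97, MER34B-int at -0.96, MER34A1 at -0.82 and RLTR24 at -0.74, and on the antisense strand MER50 at -0.88. The old MER families as a group had a deposited median sense fold of -0.16 over 30 rows, with 1 higher and 3 lower, and LTRIS families had -0.14 over 8 rows. A family total adds up many insertions, some of them inside exons of host genes, and cannot say which transcript carried the mark.

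The 16 ERV1 sense rows that were higher in the m6A immunoprecipitate lay on both sides of 0 in KO gonads, and the group was not tested. More of them lay below 0 in testis, but so did more of all ERV1 sense rows with a mean of at least 10. Of the 16, 6 had deposited folds above 0 and 10 below in P12 KO testes, with a median of -0.04 and 0 past the test. In P0 KO ovaries 9 were above 0 and 7 below in the deposited table, with a median of 0.02, and 1 passed, MMVL30-int. In P8 KO testes 5 were above 0 and 11 below against WT (median -0.05, 0 past the test), and 3 were above 0 and 13 below against het (median -0.03, 0 past the test). The 6 sense rows lower in the immunoprecipitate also lay mostly below 0 at P8. Of these, 4 were below 0 against WT (median -0.09) and 5 against het (median -0.08). At P12 and in ovary 4 of the 6 were above 0 (medians 0.11 and 0.003). Across families, Spearman's rho between the m6A fold and the KO fold was -0.14 over 99 families at P12 and -0.03 over 96 in ovary. These values are descriptions, since families share libraries and reads.

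Host genes that act on ERV1 elements were read from the same tables, as a list of 52 symbols for 51 genes of silencing and restriction, the piRNA pathway, the receptors of MLV, and entry and budding. In P12 KO testes 0 of 51 passed the test in the authors' deposited table (median log2 fold -0.04, against 0.01 over all genes). The lowest folds there were those of Piwil1, which encodes a piRNA-binding protein (-0.33), Morc2a, a partner of the HUSH silencing complex (-0.28), and Setdb1 (-0.26), and the highest those of Samhd1 (0.21) and Morc1 (0.20). At P8 0 passed against WT or het. P0 KO ovaries had 0 higher and 7 lower of 48 measured, where 0.1% of all gene rows were higher and 0.435% lower. All 7 belong to the piRNA pathway, of which 14 genes were measured. The deposited log2 folds were -1.83 for Tdrd1 (DESeq2 adjusted p = 3.08e-25), -1.52 for Tdrd9 (adjusted p = 1.23e-15), -1.21 for Mael (adjusted p = 3.31e-10), -1.16 for Piwil2 (adjusted p = 9.98e-09), -1.08 for Mov10l1 (adjusted p = 4.58e-08), -0.73 for Tdrd5 (adjusted p = 0.00683) and -0.55 for Gtsf1 (adjusted p = 0.0284). The oocyte markers Nobox (-1.79), Figla (-1.41) and Nlrp5 (-2.51) were also lower in the same deposited table, while Zp3 (-0.28) did not pass. The relation of these folds to those of the piRNA genes was not tested. Mael is both a piRNA pathway gene and a germ cell marker. The other 5 germ cell markers were Tex101 (0.78, DESeq2 adjusted p = 0.00174) and Stra8 (0.52, adjusted p = 0.0266), which rose, and Dazl (-0.15), Ddx4 (-0.34) and Sycp3 (-0.13), which did not pass. None of the 28 silencing and restriction genes measured in ovary passed, and Slc7a1, the receptor of ecotropic MLV, had a fold of 0.38 (DESeq2 adjusted p = 0.669).

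In the m6A comparison 11 of 50 tested host genes were higher and 32 lower in the immunoprecipitate than in the input, where 26.9% of gene rows were higher and 26.3% lower. Their median deposited log2 fold was -0.98, against -0.01 over all genes. Among the higher were Pld6, a nuclease of piRNA biogenesis, at 2.20 in the authors' deposited table (DESeq2 adjusted p = 7.17e-26), Atf7ip, the partner of SETDB1, at 1.59 (adjusted p = 2.21e-10), Zfp809, a KRAB zinc finger protein that silences MLV, at 1.40 (adjusted p = 2.34e-05), and Setdb1 at 0.76 (adjusted p = 0.000833). Lower were Hells at -2.14, Ddx4 at -2.07, Mael at -1.86 and Trim28 at -1.77 in that table.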

How the data were processed

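Values came from tables of the authors' own comparisons for P8 testis, P12 testis, P0 ovary and m6A. Per the file headers they give a mean normalized count, which is a signal over all libraries of a table, a log2 fold change and an adjusted p-value. The submitters' processing notes name DESeq2 and mm10; for the aligner and the counting of repeats, the sources used here give nothing. Per the file headers, fold columns for P8 and P12 total RNA are named IP against input; the labels list no immunoprecipitate there, and they were read as KO over control. In the m6A table the P12 and P20 columns appear to be sorted apart from the names and were not used. A count model had been planned; with no values per library, the authors' adjusted p-values were used, which appear to be adjusted within each type of feature. Replicates are separate libraries in the labels, and where a group has several, p-values measure only the spread between them, which may be technical. P8 m6A and P8 het against WT have 1 library a side, so their p-values rest on a spread taken by the authors from elsewhere, which the sources used here do not describe. Medians use rows whose mean normalized count is 10 or more. Python 3.11.15, pandas 2.3.3 and matplotlib 3.10.9 were used, and the scripts were tested on simulated data. In a table of a binding assay, 8 per-library columns could be tied to no label and were left out. The families, groups and gene lists were chosen with earlier results of these data known. Named families were those past adjusted p 0.05, the 10 sense rows with the most counts in a table, the most extreme folds at a mean of at least 100, and the recent groups VL30, MLV, GLN, MuRRS and LTRIS.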

Additional observations from a re-analysis of the deposited data

How the results depend on the processing

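No paired analysis was possible because the tables hold no values per library, and no library could be left out for the same reason. At an adjusted p of 0.01 the ERV1 rows called at P12 fell to 0, against 2 at 0.05; the ovary kept 2 of 3 and m6A had 23, against 29. The median sense folds were so near 0 that most settings moved them. With no floor on the mean count they were -0.0083 at P12, 0.0016 in ovary, -0.0039 at P8 against WT, -0.0032 at P8 against het and 0.019 for m6A. At a mean of at least 100 they were 0.0028 at P12, 0.0026 in ovary, -0.020 at P8 against het and 0.088 for m6A. Antisense rows gave 0.0013 at P12, -0.0036 in ovary, -0.0027 at P8 against WT, -0.0040 at P8 against het and 0.097 for m6A. Means weighted by count were 0.051 at P12, 0.075 in ovary, -0.064 at P8 against WT, -0.036 at P8 against het, -0.027 for het against WT and 0.96 for m6A. The median m6A fold minus that of all repeat sense rows was 0.033. Of the other 26 values, the counts of calls stayed within 1.5 times. The remaining medians did not differ once rounded to 2 decimals, although unrounded P8 KO against WT at a mean of at least 100 was -0.013, against -0.0076, and P8 het against WT on antisense rows was -0.0014, against 0.00029, so its sign is not fixed. Where the weighted mean differs in sign from the median, as at P12, neither gives a direction of ERV1 as a whole. The weighted mean leans on the rows with the most counts. At P12 MMVL30-int held 15.3% of the ERV1 sense counts and had a sense fold of 0.31. The weighted mean without it was not taken. Depth limits rows with few counts: at P12 the SD of folds was 0.0294 for 57 ERV1 rows below a mean of 10 and 0.122 for 22 rows of at least 1000.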
